A study of Mus musculus with 2 samples.

Results

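Interferon regulatory factors (IRF) are transcription factors, and 8 of their genes were described in mouse hematopoietic stem cells (HSC): Irf1, Irf2, Irf3, Irf4, Irf5, Irf7, Irf8 and Irf9. They were taken by symbol and are 8 of 43346 genes with an identifier, of which 21474 are protein-coding. Each library was made with the ScriptSeq kit from 100 ng of total RNA that had been cleared of ribosomal RNA. The HSC were from the bone marrow of adult male C57BL/6J mice aged 5 to 6 weeks, with no treatment or altered allele named. There was 1 group of 2 biological replicates, from separate biosamples with the same donor entry. The sources used here state neither whether these came from different animals or pools nor which surface gate sorted the cells, so the spread between the libraries may be partly technical. No differential test was made, because an exact permutation of signs over 2 libraries cannot give a p below 0.5.

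Proteins of this family bind DNA through an amino-terminal domain with conserved tryptophans, which reads repeats of GAAA in promoters of interferon-responsive genes. IRF3 and IRF7 lie in the cytoplasm until sensors of foreign nucleic acid lead to their phosphorylation, and they then switch on type I interferon genes. IRF9 is a subunit of the complex ISGF3, which carries the signal of the type I interferon receptor, while IRF1 is itself induced by interferon and IRF2 competes with it for DNA. In blood formation IRF8 directs monocyte and dendritic cell development, IRF4 acts in lymphoid cells, and loss of IRF2 in mice leaves stem cells exposed to chronic interferon signalling.

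Replicate 1 held 27901074 counts and replicate 2 held 48490188. Levels are in TPM, that is counts per effective length of transcript scaled to a constant sum, so they can be set side by side between genes. Protein-coding genes held 16.3% of TPM in replicate 1 and 20.3% in replicate 2. Each level carries the deposited interval of about 95%, which covers counting and assignment error only, as does the floor of 3 counts used for a gene with no count. Of 8 HSC markers in the list, leaving out Flt3 and Cd48, 7 had at least 1 TPM in both libraries, among them Kit at 36.42 and 45.10 TPM, Procr at 12.69 and 14.71, and Mecom at 16.76 and 16.85. Slamf1, which marks long-term HSC, was at 0.42 and 0.43 TPM, and Flt3 and Cd48, also listed but low in the most primitive HSC, were at 57.91 and 53.19 and at 16.08 and 12.39. All 10 neutrophil markers were higher in replicate 1, with summed levels of 3035 and 1122 TPM, and all 8 erythroid markers were higher in replicate 2, with sums of 98.2 and 222.5. In such bulk RNA, fewer cells of a type and less RNA per cell cannot be told apart.

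RNA of 7 of the 8 IRF genes was present at 1 TPM or more in both libraries, where 44.0% of protein-coding genes reached that level. Irf1 led, followed by Irf3, Irf9 and Irf2, then by Irf8, Irf5 and Irf7 close together, with Irf4 far below. The top and the bottom of this order were 67.2-fold apart in replicate 1 and 74.2-fold in replicate 2. The median over the 8 genes was 5.56 and 5.565 TPM, beside 0.51 and 0.53 over all protein-coding genes and 5.53 and 6.70 over those with a mean of at least 1 TPM. Irf4 falls below that last filter, and the middle one of the other 7 was Irf2, at 6.09 and 7.31 TPM. Every read counted for these 8 genes was assigned to them without sharing between genes, as their deposited counts were whole with a posterior SD of 0.

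**Figure D1:**
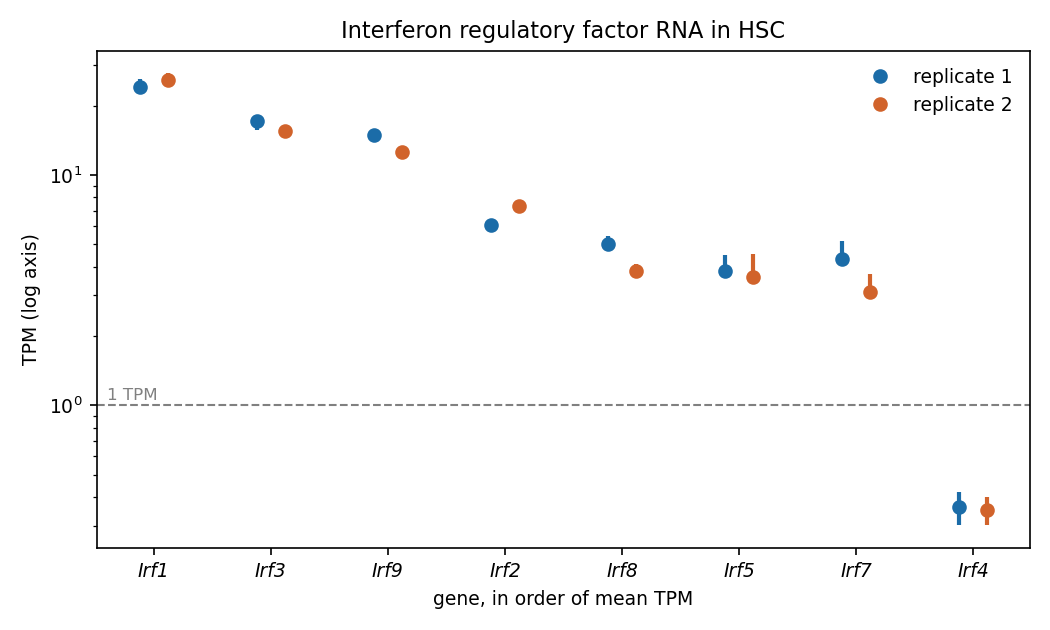
Level of each IRF gene (x axis, in order of mean TPM) in TPM on a log axis, with replicate 1 in blue, replicate 2 in orange and bars for the deposited intervals. Irf1 stood at 24.2 and 25.97 TPM, and Irf4 alone lay below the dashed line at 1 TPM.

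Irf1, the interferon-induced activator, lies on the plus strand at chr11:53770014-53778374 (GRCm38, as all positions here). It had 2956 counts in replicate 1 and 4311 in replicate 2. Its level was 24.2 TPM (interval 23.0 to 26.2) in replicate 1 and 25.97 TPM (24.9 to 27.7) in replicate 2, or 25.1 ± 1.25 TPM (SD, n = 2). The intervals overlapped, and the gene ranked above 95.4% and 94.1% of protein-coding genes.

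Irf2, the antagonist of Irf1, spans chr8:46739732-46847458 on the plus strand and had 1206 and 2126 counts. It stood at 6.09 TPM (5.64 to 6.32) in replicate 1 and 7.31 TPM (6.95 to 7.56) in replicate 2, a mean of 6.70 ± 0.863 TPM (SD, n = 2). It was the only IRF gene whose interval in replicate 2 lay wholly above that in replicate 1. That order turned when TPM was rescaled over protein-coding genes, which gave 37.4 and 36.0. The log2 ratio of Irf1 over Irf2 (each TPM + 0.1) was 1.97 in replicate 1 and 1.81 in replicate 2, or 1.89 ± 0.11 (SD, n = 2). RNA of the activator gene thus exceeded that of the antagonist gene in both libraries, and protein was not measured. Protein-coding transcripts alone held 14.76 and 17.19 TPM of Irf1, against 6.09 and 7.31 TPM of Irf2.

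Short matches to known elements were searched on both strands of RefSeq promoter windows (GRCm38.p6, from 250 bases before a start to 50 after it). There were 11 windows for the 8 genes among 32851 in all. That of Irf5 lies at chr6:29526375-29526674, so the start of its leading transcript at chr6:29529282 was not searched. The IRF element, GAAA and GAAA spaced by any 2 bases, was in 1 of the 11, that of Irf2, and in 3.44% of all windows. The STAT element TTCNNNGAA, which reads the same on both strands, was in 3 of the 11, those of Irf1, Irf2 and Irf8, and in 8.30% of all. The composite element of an ETS and an IRF factor, GGAA and GAAA spaced by any 2 bases, was in 1 of the 11, again Irf2 and overlapping its IRF element, and in 2.72% of all. The ETS core GAGGAA was in 4 of the 11, those of Irf2, Irf4 and both of Irf9, beside 28.3% of all. The upstream parts of the 3 windows with a STAT element are shown 5′ to 3′ on the plus strand, with matches to the first 3 elements in capitals, since interferon signalling acts through such elements. They lie at chr11:53769764-53770013 for Irf1, chr8:46739495-46739731 for Irf2 and chr8:120736108-120736357 for Irf8.
Irf1: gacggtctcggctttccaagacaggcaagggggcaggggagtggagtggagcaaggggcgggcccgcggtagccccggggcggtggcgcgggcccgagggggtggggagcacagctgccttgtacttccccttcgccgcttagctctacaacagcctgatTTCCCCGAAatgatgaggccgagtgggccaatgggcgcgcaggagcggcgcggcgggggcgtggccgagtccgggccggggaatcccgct
Irf2: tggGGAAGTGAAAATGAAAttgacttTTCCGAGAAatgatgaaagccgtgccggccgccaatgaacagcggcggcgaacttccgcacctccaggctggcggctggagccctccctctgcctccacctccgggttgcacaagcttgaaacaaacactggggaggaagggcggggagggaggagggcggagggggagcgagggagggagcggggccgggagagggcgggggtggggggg
Irf8: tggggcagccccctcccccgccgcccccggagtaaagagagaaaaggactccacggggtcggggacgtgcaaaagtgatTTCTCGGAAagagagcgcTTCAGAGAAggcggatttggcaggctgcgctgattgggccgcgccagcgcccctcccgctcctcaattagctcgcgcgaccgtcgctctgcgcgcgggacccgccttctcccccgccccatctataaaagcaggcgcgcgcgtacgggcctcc
The Irf1 match TTCCCCGAA lies 90 to 82 bases before the RefSeq start. In Irf2, GGAAGTGAAA lies 247 to 238 bases, GAAAATGAAA 241 to 232 bases and TTCCGAGAA 224 to 216 bases before it. The leading 21 bases of that stretch are also an exon of Gm16675, a divergent noncoding RNA that starts 217 bases from the annotated start of Irf2. Irf8 holds TTCTCGGAA 171 to 163 bases and TTCAGAGAA 153 to 145 bases before its start. No binding was measured, and a match is a description of letters.

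Irf3, the constitutive factor that type I interferon induction begins with, lies at chr7:44997648-45002848 on the plus strand. It had 1370 and 1768 counts, and its level was 17.21 TPM (15.7 to 18.2) in replicate 1 and 15.55 TPM (14.6 to 16.5) in replicate 2, or 16.4 ± 1.17 TPM (SD, n = 2). Irf7, the interferon-inducible amplifier of the same response, lies on the minus strand at chr7:141262706-141266481. It had 562 and 629 counts, and its level was 4.30 TPM (4.10 to 5.19) in replicate 1 and 3.12 TPM (3.03 to 3.70) in replicate 2, or 3.71 ± 0.834 TPM (SD, n = 2). Irf3 exceeded Irf7 in both libraries, with log2 ratios of 1.98 and 2.28, or 2.13 ± 0.22 (SD, n = 2). Part of that ratio rests on the shorter effective length of Irf3, 922 and 876 bases against 1513 and 1552 for Irf7. Coding transcripts as annotated held 2.83 and 2.81 TPM of Irf3, a lower limit, and 0.91 and 2.01 TPM of Irf7.

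Irf5, which acts below MyD88 in Toll-like receptor signalling, lies on the plus strand at chr6:29526625-29541871 and had 622 and 920 counts. It stood at 3.84 TPM (3.58 to 4.50) in replicate 1 and 3.62 TPM (3.57 to 4.56) in replicate 2, or 3.73 ± 0.156 TPM (SD, n = 2). The intervals of the libraries overlapped over nearly their whole width.

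Irf9, the DNA-binding subunit of ISGF3, lies on the plus strand at chr14:55603571-55610030 and had 2895 and 3676 counts. It reached 14.86 TPM (14.1 to 15.3) in replicate 1 and 12.55 TPM (12.1 to 12.9) in replicate 2, or 13.7 ± 1.63 TPM (SD, n = 2). Stat2, another gene of that complex, was at 1.73 and 1.35 TPM. Irf9 was below Irf1 in both libraries, and log2 ratios of Irf9 over Irf1 were -0.70 and -1.04, or -0.87 ± 0.24 (SD, n = 2).

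Irf8 and Irf4 both bind composite DNA elements with the ETS factor Spi1. Irf8 lies at chr8:120736358-120756694 on the plus strand, had 1149 and 1292 counts, and was at 5.03 TPM (4.79 to 5.46) in replicate 1 and 3.82 TPM (3.66 to 4.12) in replicate 2. Its mean was 4.425 ± 0.856 TPM (SD, n = 2). Irf4 lies at chr13:30749226-30766976 on the plus strand and was at 0.36 TPM (0.301 to 0.418) and 0.35 TPM (0.302 to 0.398), from 141 and 203 counts. Its mean was 0.355 ± 0.00707 TPM (SD, n = 2), and it ranked above 48.3% and 48.1% of protein-coding genes. The count was above the floor in both libraries, and on TPM rescaled over protein-coding genes Irf4 passed the threshold of 1, at 2.21 and 1.73. Irf8 exceeded Irf4 in both libraries, by a log2 ratio of 3.48 and 3.12, or 3.30 ± 0.25 (SD, n = 2), and Spi1 itself was at 10.25 and 11.95 TPM.

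A pair of genes counted as ordered if its direction was shared by both libraries and its intervals were apart in each. This held for 25 of the 28 pairs of IRF genes. Without Irf4 it held for 18 of 21, close to the 80.6% of all pairs of protein-coding genes with at least 1 TPM in both libraries. The exceptions lay among Irf8, Irf5 and Irf7. Irf8 was 1.31-fold and 1.06-fold of Irf5 and 1.17-fold and 1.22-fold of Irf7, and Irf5 was 0.893-fold of Irf7 in replicate 1 and 1.16-fold in replicate 2. Neighbours elsewhere in the order did differ beyond their intervals, the closest being Irf3 over Irf9 at 1.16-fold and 1.24-fold. Irf3 had fewer counts than Irf9, 1370 and 1768 against 2895 and 3676. Its place above Irf9 thus rests on a shorter effective length, 922 and 876 bases against 2256 and 2257. The same holds for its place above Irf2 in replicate 2, where Irf2 had 2126 counts and an effective length of 2240 bases. Coding transcripts as annotated held 2.83 and 2.81 TPM of Irf3, a lower limit. They held 11.88 and 11.29 TPM of Irf9 and 6.09 and 7.31 TPM of Irf2. Irf2 over Irf8 was also ordered, but its ratio moved from 1.21-fold to 1.91-fold between libraries.

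Between the replicates, none of the 7 IRF genes with a mean of at least 1 TPM differed by over 2-fold with intervals apart, a difference that 8.61% of the 9900 protein-coding genes with a mean of at least 1 TPM showed. The largest ratio was 1.38-fold for Irf7, followed by 1.32-fold for Irf8, both higher in replicate 1. Intervals alone were apart for 4 of these 7, against 71.1% of those 9900 genes. Irf7, Irf8 and Irf9 were the 3 that were higher in replicate 1, a direction found in 13.3% of the genes. Irf2 was the 1 that was higher in replicate 2, a direction found in 57.7%.

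The log2 ratio of replicate 2 over replicate 1 (TPM + 0.1) had a median of -0.11 over the 8 genes, or -0.15 without Irf4, and 0.29 over the 9900. It was 0.26 for Irf2 and 0.10 for Irf1, then -0.03 for Irf4, -0.08 for Irf5, -0.15 for Irf3, -0.24 for Irf9, -0.39 for Irf8 and -0.45 for Irf7. The sign for Irf1 turned on CPM, which is counts scaled to the library total, at -0.25, with TMM scaling, at -0.26, and with size factors, at -0.25. The median over the 9900 genes was 0.05 on CPM, so the scale itself moved all ratios. Each of the 8 lay below the median of protein-coding genes on TPM, on TPM with a pseudocount of 1 and on CPM. Counts scaled by TMM or size factors gave the same, but like CPM they only rescale each library as a whole. They are thus no separate check of a place relative to the median. From 5% to 95% of the 9900 genes the ratio ran from -0.64 to 1.11, so that the 8 values lay inside the ordinary spread between these libraries.

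**Figure D2:**
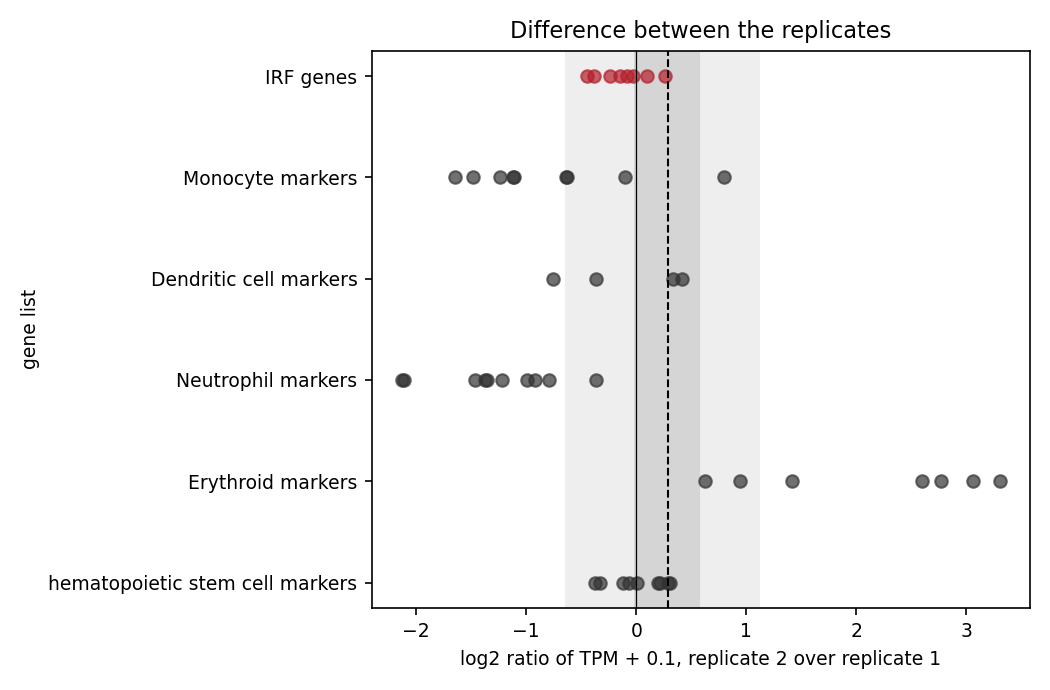
Log2 ratio of TPM + 0.1, replicate 2 over replicate 1 (x axis), for the IRF genes (red) and for markers with a mean of at least 1 TPM (grey points, by list), with the median of 9900 protein-coding genes (dashed) and their central ranges from 25% to 75% and from 5% to 95% (shaded). IRF genes ran from -0.45 to 0.26, the 10 neutrophil markers all lay below 0, and the erythroid markers shown lay above every IRF gene.

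All 10 neutrophil markers and 9 of 10 monocyte markers were higher in replicate 1, as were Irf7, Irf8 and Irf9 with intervals apart. In both libraries 8 of the 10 monocyte markers reached 1 TPM, and 7 were higher in replicate 1 with intervals apart against 1 in replicate 2. Their summed level was 403 TPM in replicate 1 and 195 in replicate 2, most of it from Lyz2 at 333.67 and 153.46, and Csf1r was at 1.58 and 0.61. Of 10 dendritic cell markers, 3 had at least 1 TPM in both, with sums of 50.6 and 58.1 TPM. These were H2-Ab1 at 24.35 and 32.45 TPM, Tcf4 at 11.63 and 14.65 and Bst2 at 12.09 and 9.35, and Ccr9 was at 1.54 and 0.87. The other 6 lay below 1 TPM in both libraries, among them Itgax at 0.40 and 0.26, Cd209a at 0.29 and 0.35, Xcr1 at 0.06 and 0.05 and Clec9a at 0.08 and 0.10. Siglech had no count, with deposited intervals of 0.0261 to 0.144 and 0.0187 to 0.103 TPM, which leave out the listed 0. Of 8 B cell markers 1 was expressed, with sums of 5.78 and 3.97 TPM. Pax5 and Cd22 were listed at 0 counts, but the deposited intervals of Pax5 ran from 0.245 to 1.17 and from 0.18 to 1.28 TPM and those of Cd22 from 0.181 to 0.771 and from 0.15 to 0.675 TPM, so these levels are not settled at 0. Of 8 T cell markers 4 were expressed and 2 had no count, with sums of 16.2 and 14.6 TPM. The part of monocytes, neutrophil precursors or erythroid cells in the levels of the IRF genes was not tested.

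The transcript of highest listed isoform percent differed between the replicates for Irf3, Irf7 and Irf9, though for Irf3 the leader in replicate 2 was not resolved. The tables hold 52 transcripts of the 8 genes, and isoform percent gives how a gene's TPM is divided among them. Among the 6 IRF genes with several transcripts and at least 1 TPM, the same transcript led in both libraries for 3, against 75.0% of 7079 such protein-coding genes and 69.8% of those with 6 to 11 transcripts. A transcript moved by over 20 points in 3 of the 6, namely Irf5, Irf7 and Irf9, against 41.4% of such genes, a share close to that background. Fragments also differed, with a labelled size range of 172 to 1452 nucleotides in replicate 1 and 232 to 1000 in replicate 2. The mean length implied by the effective length of Irf2, which has a single transcript, was 193 and 245 nucleotides. The part of fragment length in the isoform shifts was not tested.

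**Figure D3:**
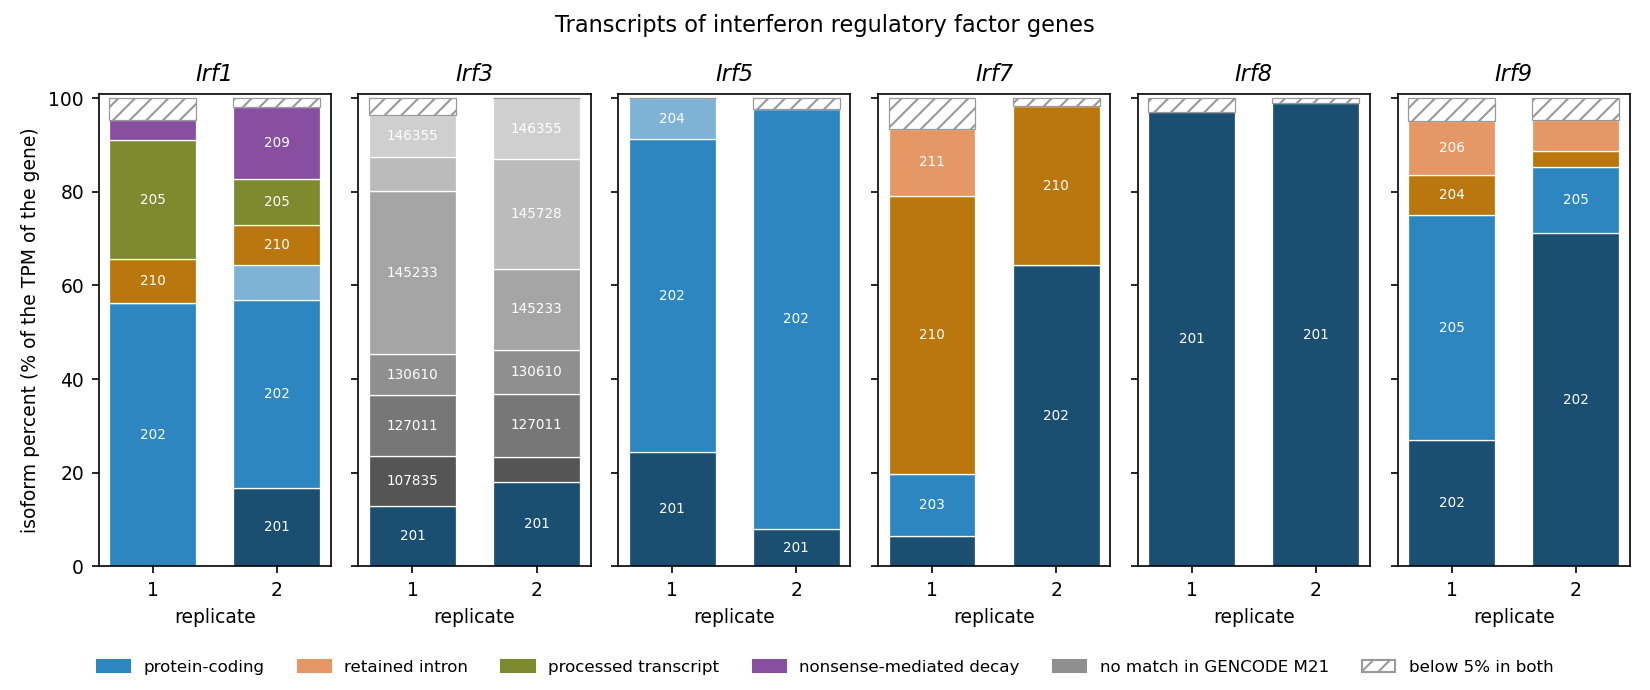
Isoform percent (y axis) of the transcripts of 6 IRF genes in each replicate, coloured by GENCODE class and numbered by transcript, with transcripts below 5% in both libraries hatched. Irf8 kept a single main transcript, whereas the transcript of highest isoform percent for Irf3, Irf7 and Irf9 differed between the libraries.

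Irf9 showed a change of leading 5′ end. Irf9-202 starts at chr14:55603985 and held 26.93% in replicate 1 and 71.27% in replicate 2, at 4.00 TPM (3.03 to 4.71) and 8.95 TPM (8.01 to 9.64). Irf9-205 starts downstream at chr14:55604579, and its exon 1 lies in the first intron of Irf9-202. It held 48.09% and 14.00%, at 7.15 TPM (6.15 to 8.03) and 1.76 TPM (1.01 to 2.60). The intervals of each transcript were apart between libraries, and the order of the 2 transcripts was opposite in them. Both starts are also RefSeq starts. They share exon 2 onwards. Exon 1 of Irf9-205 lies within exon 1 of the retained-intron Irf9-204, which held 8.56% and 3.50%, so reads inside it fit both. Reads within exon 1 or across its end tell Irf9-202 and Irf9-205 apart. The 30 bases around that junction show this, 5′ to 3′ on the plus strand from GENCODE M21 transcripts, with the end of exon 1 in capitals. They span chr14:55604229-55605066 and chr14:55604707-55605066.
Irf9-202: TTTTCAGCGGCTCAGgatggcctcaggcaa
Irf9-205: GAGGTTTCCTTTCAGgatggcctcaggcaa
The start codon of Irf9-202 lies in exon 2 at chr14:55605053-55605055, with 1197 coding bases. That of Irf9-205 lies in its exon 1 at chr14:55604669-55604671, with 1251 coding bases. Together all protein-coding transcripts of Irf9 held 79.91% and 89.88%, or 11.88 and 11.29 TPM, while retained-intron transcripts held 20.10% and 10.12%.

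**Figure D4:**
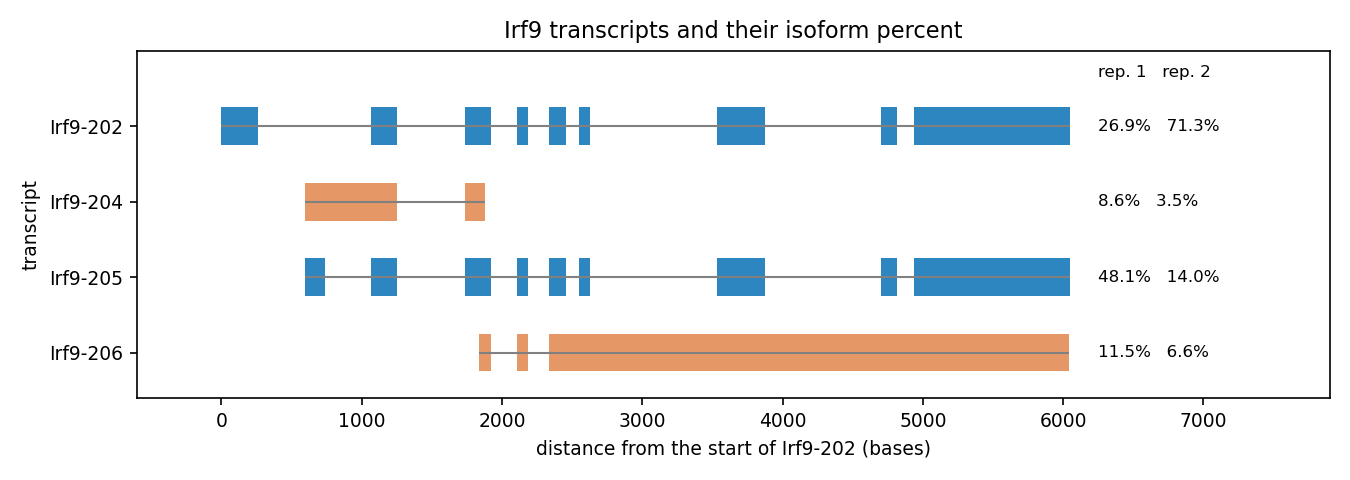
Exons (boxes) of the Irf9 transcripts with at least 5% in either library, by distance in bases from the start of Irf9-202, with protein-coding transcripts in blue and retained-intron transcripts in orange and the isoform percent at the right. Irf9-202 held 26.9% in replicate 1 and 71.3% in replicate 2, and Irf9-205 held 48.1% and 14.0%.

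Irf7 differed in its listed share of coding RNA. The retained-intron transcript Irf7-210 held 59.36% in replicate 1 and 33.92% in replicate 2, at 2.55 TPM (1.86 to 2.98) and 1.06 TPM (0.727 to 1.24). The protein-coding Irf7-202 held 6.48% and 64.31%, at 0.28 TPM (0.0439 to 0.617) and 2.01 TPM (1.53 to 2.22), from 37.8 and 396 expected counts. Their annotated differences within the gene are an additional exon of 93 bases at chr7:141264223-141264315 and a retained intron of 69 bases at chr7:141264656-141264724, both in Irf7-210. The protein-coding Irf7-203 held 13.32% in replicate 1 and was listed at 0 in replicate 2, as was the retained-intron Irf7-211, at 14.26% in replicate 1. Coding transcripts thus held 21.27% and 64.31% of Irf7, or 0.91 and 2.01 TPM. Irf7 as a gene was higher in replicate 1, but the listed sum of its coding transcripts was higher in replicate 2. That sum carries no interval, and Irf7-203 alone ran from 0.0851 to 0.893 TPM in replicate 1. Whether the sums differ beyond assignment error was not tested.

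Irf1 kept Irf1-202 as its leading transcript, at 56.25% and 40.13%, and this transcript starts at the RefSeq start that follows the Irf1 sequence shown with the promoters. Irf1-201, which starts within the same gene at chr11:53770495, was listed at 0 in replicate 1 and held 16.70% in replicate 2, at 4.34 TPM (3.30 to 5.39). Both have the start codon at chr11:53771289-53771291 and 987 coding bases. The noncoding Irf1-205 held 25.39% and 9.82%, and Irf1-209, annotated for nonsense-mediated decay, held 4.29% and 15.39%. Irf1-207 was listed at 0 and held 7.48%, and the retained-intron Irf1-210 held 9.36% and 8.58%. All coding transcripts of Irf1 held 60.95% and 66.20%, so over 30% of its TPM was in other classes in both libraries.

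Irf3 was divided over 9 transcripts, of which 7 had no match in GENCODE M21 and held 83.59% and 81.94%. ENSMUST00000145233 led in replicate 1 with 34.92% and held 17.32% in replicate 2, while ENSMUST00000145728 held 7.29% and led in replicate 2 with 23.41%. The coding Irf3-201 held 12.82% and 18.07%, at 2.21 TPM (1.39 to 2.79) and 2.81 TPM (2.16 to 3.19), with intervals that overlapped. The class of the unmatched transcripts was not used here, so the coding share of Irf3 given by the annotation, 16.41% and 18.07%, is a lower limit.

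Irf5 and Irf8 were led by coding transcripts. Irf5-202, which starts at chr6:29529282, held 66.65% and 89.68%, and Irf5-201, which starts at chr6:29526625, held 24.53% and 8.00%. The intervals of Irf5-201 ran from 0.00332 to 1.85 TPM in replicate 1 and from 0.0149 to 0.969 TPM in replicate 2, so the shift was not detectable beyond assignment error. Irf5-204 held 8.82% and was listed at 0. Both Irf5-201 and Irf5-202 have the start codon at chr6:29531137-29531139 and 1491 coding bases. Irf8-201 held 96.98% and 98.98%, and Irf2 has the single transcript Irf2-201.

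Irf4 has coding transcripts that differ by 3 bases at the start of exon 5, chr13:30753445 against chr13:30753448. The junction of exons 4 and 5 is shown for both, spanning chr13:30752750-30753477 on the plus strand, with the additional bases in capitals.
Irf4-201: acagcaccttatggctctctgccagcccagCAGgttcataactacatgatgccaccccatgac
Irf4-202: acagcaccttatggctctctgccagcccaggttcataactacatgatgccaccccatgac
Deposited isoform percent gave Irf4-202 94.79% and 96.29% and Irf4-201 5.21% and 3.71%. By posterior means Irf4-201 instead led, with 57.02% and 51.34%. The intervals of Irf4-201 reached from 0.000966 to 0.36 TPM in replicate 1, nearly the whole gene level, so these counts did not tell the forms apart.

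Other genes overlap the IRF loci. The sources used here do not state whether counting used strand. The deposited counts of Irf3, Irf5 and Irf7 and of their opposite-strand partners Bcl2l12, Tnpo3 and Phrf1 were all whole, so no read was divided between them. Irf3 overlaps the start of Bcl2l12 by 1065 bases on the opposite strand, at 5.69 and 4.06 TPM. Irf5 overlaps Tnpo3 by 1045 bases (13.72 and 14.14 TPM) and Irf7 overlaps Phrf1 by 45 bases (12.16 and 10.37 TPM), both on the opposite strand. Irf9 overlaps Rnf31 by 123 bases on the same strand, at 4.38 and 2.12 TPM. Irf8 lies wholly within the longer gene model Gm20388 on the same strand, at 5.45 and 3.85 TPM. Gm17334 inside Irf1 was at 0.16 and 0.10 TPM and Gm16675 beside Irf2 at 0.41 and 0.52. Gm45479, Gm31172 and Gm45481, which overlap Irf2 in GENCODE M21, were not analysed here.

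Of 100 listed genes around the family, 77 had at least 1 TPM in both libraries, beside 44.0% of protein-coding genes. All 5 listed interferon ligands lay below it. Ifnb1, Ifne, Ifnk and Ifna4 had no count in either library, which allows up to 3 counts, or 0.108 CPM in replicate 1 and 0.0619 CPM in replicate 2, and Ifng, the type II ligand, was at 0.26 and 0.30 TPM. Of 6 receptor genes 5 were expressed, with a median of 9.13 and 10.4 TPM. Ifnar2, a chain of the type I receptor, was at 21.50 and 30.03 TPM, Ifngr1, the ligand-binding chain for interferon gamma, at 19.23 and 23.95, and Il10rb, shared by interleukin 10 and type III interferon receptors, at 9.27 and 11.27.

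All 6 receptor kinases and STAT factors were expressed, with a median of 14.7 and 17.8 TPM. Jak1, a kinase of both receptors, was at 23.60 and 23.73 TPM and Stat3 at 21.98 and 22.01. Of 6 feedback inhibitors 5 were expressed, at a median of 5.31 and 6.84 TPM. The phosphatase genes Ptpn6 and Ptpn2 led these at 76.84 and 105.86 TPM and at 20.17 and 25.81 TPM, followed by Socs3 at 6.15 and 9.10.

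Of 14 nucleic acid sensors and adaptors 10 were expressed, at a median of 3.11 and 3.01 TPM. Ddx58, which encodes the RNA sensor RIG-I, was at 13.56 and 13.45 TPM, Ifih1, for the sensor MDA5, at 6.63 and 8.70, and Tmem173, for the adaptor STING, at 6.42 and 6.01. All 11 kinases and ligases that act on IRF proteins were expressed, at a median of 5.60 and 7.05 TPM, led by Ikbkb at 13.61 and 15.88, Tank at 9.91 and 14.32 and Irak1 at 9.84 and 13.54.

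Of 12 DNA-binding partners 8 were expressed, at a median of 8.44 and 10.1 TPM. The AP-1 genes Jun and Junb were highest, at 65.64 and 95.63 TPM and at 34.96 and 42.07 TPM, and Etv6, an ETS repressor, was at 25.34 and 28.40. Batf, which forms AP-1 dimers that recruit IRF4 and IRF8, was at 6.83 and 9.31 TPM, whereas Batf3 was at 0.17 TPM from 9 counts in replicate 1 and was listed at 0 counts in replicate 2, with an interval of 0.0191 to 0.201 TPM. Of 5 cofactors 4 were expressed, led by the IRF2 corepressor gene Irf2bp2 at 15.94 and 20.21 TPM and the acetyltransferase genes Ep300 at 7.27 and 6.15 and Crebbp at 5.83 and 4.98.

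Of 35 interferon targets 28 were expressed, at a median of 8.96 and 8.52 TPM. B2m, the light chain of MHC class I, was at 567.82 and 700.53 TPM, Psmb8, an immunoproteasome subunit, at 62.79 and 63.00, and Ifitm3, an antiviral membrane protein, at 55.15 and 29.33. With intervals apart, 9 of the 35 were higher in replicate 1 and 16 in replicate 2, where 13.3% and 57.7% of the 9900 protein-coding genes were. Unlike the 9900, the 35 were not filtered by level or class. They hold Mx2, classed as a polymorphic pseudogene, and genes with a mean below 1 TPM. Of the latter, Oas2 and Cxcl10 were among those higher in replicate 1 and Oasl1 among those higher in replicate 2.

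**Figure D5:**
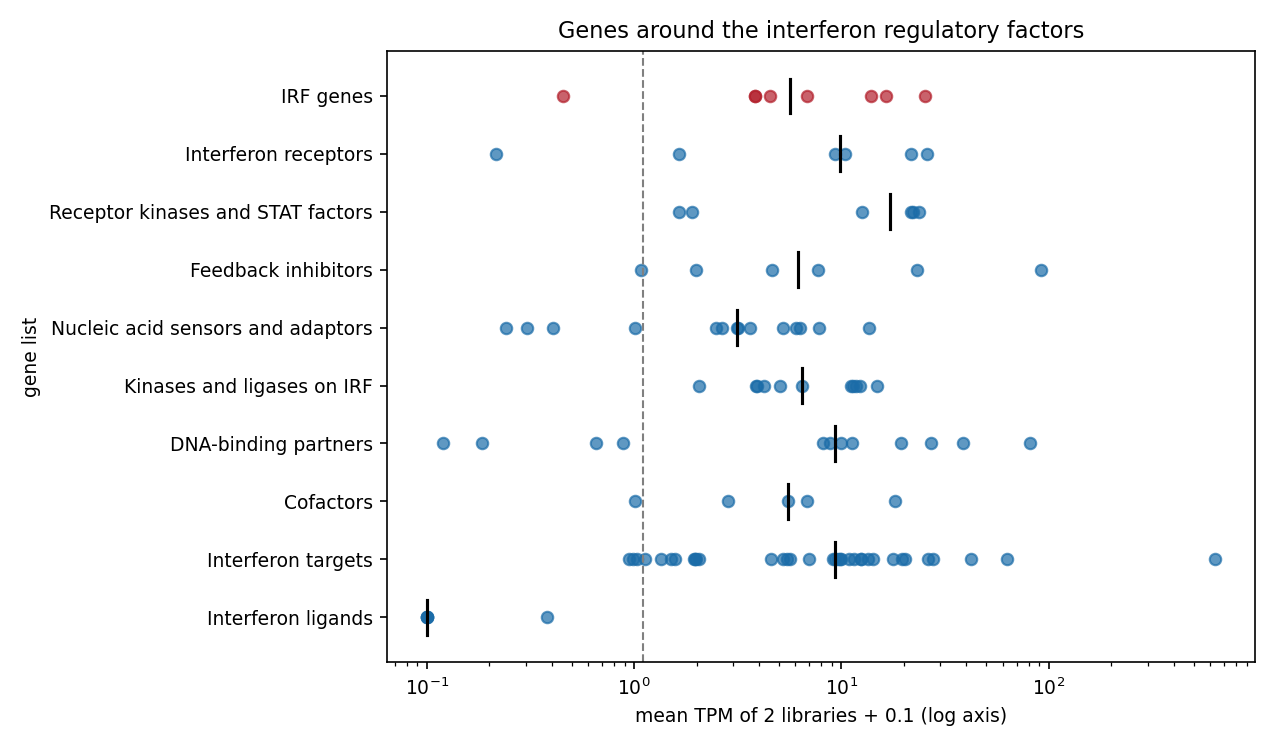
Mean TPM + 0.1 over the 2 libraries (x axis, log) for the IRF genes (red) and each list of pathway genes (blue), with the list median as a black bar and the threshold of 1 TPM dashed. The 5 ligands lay below the threshold and the 11 kinases and ligases lay above it.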

How the data were processed

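Total RNA-seq of 2 HSC libraries was analysed, 1 group with no comparison between groups. Per the file headers, the deposited gene and transcript tables hold estimated or expected counts, which can be fractional, together with TPM and FPKM values, their posterior means, posterior SD, and interval bounds, treated as a score on the TPM scale. The authors also deposited an isoform percent for each transcript, its part of the gene's TPM. FPKM was read but no result rests on it. Per the labels and sample text files, the tables use mm10 and GENCODE M4. The sources used here name no aligner or counter. The bounds implied a level of 94.95% and 94.99% over single-transcript genes.

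GENCODE M21 (GRCm38) supplied names, classes and positions, matched by identifier for 42462 of 43346 genes. RefSeq supplied promoter windows. A gene counted as expressed at 1 TPM in both libraries, and ratios used a pseudocount of 0.1. Expected counts were rounded for TMM factors (edgeR 4.0.16) and size factors (DESeq2 1.42.0), used only as scaling alternatives. Replicate 1 had 27901074 counts and replicate 2 had 48490188, and a floor of 3 counts stands for 0.

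The members and gene lists were chosen with earlier results of these data known. Named genes were all 8 members, their transcripts of at least 5%, overlapping genes and those starting within 1000 bases, the 3 highest and the uncounted genes of each pathway list, and the partners Spi1, Stat2, Batf and Batf3. Some genes under this rule are not reported here. Marker genes were named after their values were seen. Alternatives were thresholds, pseudocount, scaling, posterior means and each library alone. The rule for genes apart between replicates was tested on simulated data with counting noise only, which leaves out other variation between libraries. The other rules were not tested in this way. Other tools were Python 3.11.15, pandas 2.3.3, numpy 2.4.6, scipy 1.17.1, matplotlib 3.10.9 and R 4.3.3.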

Additional observations from a re-analysis of the deposited data

How the results depend on the processing

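The 38 summary values recomputed under another setting kept their direction, and counts stayed within 1.5 times. The number of IRF genes expressed was 7 at 0.5 or 2 TPM and by posterior means, and 8 with TPM rescaled over protein-coding genes or at 10 counts. The pathway count ran from 67 at 2 TPM to 94 at 10 counts. With 1 library left out it was 81 to 83, expressed IRF genes were 7, ordered pairs were 25 to 26 and role pairs with the same direction were 4. Each of these counts required both libraries, so leaving 1 out could only keep or raise it. The median coding share was 89.5% to 94.4% with 1 library left out. Ordered pairs with at least 1.5-fold in both libraries were 21. The median replicate ratio of the 8 genes ranged from -0.41 (centred) to -0.08 (posterior means). A pseudocount of 1 lowered the log2 ratio of Irf1 over Irf2 to 1.76, of Irf3 over Irf7 to 1.89 and of Irf8 over Irf4 to 1.99. Rescaled TPM gave 3.56 for Irf8 over Irf4, as the pseudocount then weighs less. Posterior means gave coding shares of 98.8% for Irf5 and 97.8% for Irf8. Among leading transcripts, 5 of 8 were the same by either estimate, Irf2 with its single transcript included, but the leader of Irf4 was Irf4-201 by posterior means. Ordered pairs with posterior SD as bounds were not run, because that SD is 0 for all 8 genes. No paired analysis was possible because there was 1 group. Depth limits Irf4, which had the fewest reads of the 8 genes (141 and 203 counts).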
